A study of Mus musculus with 16 samples.

Results

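The change of whole input RNA was followed here in mouse cochleae at postnatal day (P) 4, after loss of the supporting cells that carry the receptor LGR5. Of the 16 libraries of the series, 8 were chosen by their labels: 4 control input and 4 DTR input libraries. The other 8 were made after immunoprecipitation (IP) of tagged ribosomes and enter only as a shared estimate of the spread and in the last comparison. Control animals were GLAST CreERT/+; Rpl22 HA/+, with a tamoxifen-inducible Cre under the promoter of the glutamate transporter GLAST (gene Slc1a3) and a ribosomal protein L22 that Cre tags with HA. DTR animals carried, in addition, Lgr5 DTR/+, a human diphtheria toxin receptor knocked into the Lgr5 gene, so that diphtheria toxin (DT) kills the cells that express Lgr5. By the study's methods, mice of either genotype were given tamoxifen and DT on P1. The labels differ from this: they list the control libraries as untreated and only the others as DTR treated. Cre, HA tag, tamoxifen and DT were thus common to both groups by the methods, and the genotypes differed in the Lgr5 allele. Each library came from a pool of 8 cochleae of 4 mice, after removal of Reissner's membrane, the lateral wall and the spiral ganglia. Input RNA was extracted from a small part of the homogenate kept before the antibody was added, so it holds RNA of all cells of the dissected duct. The labels name GLAST-Cre+ cells as the cell type of the input libraries too, and markers of hair cells, mesenchyme, vessels, glia and macrophages were nevertheless all measured in them. The fourth replicate of each group is numbered 6 in the deposited data.

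The organ of Corti holds sensory hair cells and, around them, supporting cells. These are pillar and Deiters' cells on the lateral side and inner phalangeal and border cells around the inner hair cells. Medial to the organ of Corti lie the columnar cells of the greater epithelial ridge (GER). Supporting cells keep their identity through Notch, FGF and Wnt signalling, clear potassium, secrete the proteins of the tectorial membrane and guide nerve fibres. LGR5 is a receptor for R-spondins that strengthens Wnt signalling, and in the neonatal cochlea it marks a part of these cells that can divide or become hair cells after damage. Dying cells in epithelia typically raise stress, p53 and inflammatory genes, in themselves or in their neighbours.

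Depth was alike in the libraries compared. Reads counted on genes ranged from 35517482 to 41966310 in control input and from 32764633 to 39158473 in DTR input, and 3 reads, the limit that a count of 0 allows, correspond to between 0.0715 and 0.0916 CPM (reads of a gene scaled to a fixed library total) in these 8 libraries, which covers counting error only. The first principal component of the 8 libraries held 46.6% of the variance and parted control from DTR. The second held 20.4% and parted replicates 1 and 2 from replicates 3 and 4 in both groups. For some lists whose genes or counts followed this split, counts are given below for each pair of replicates. Other lists followed it too. In replicates 1 and 2 alone 5 tectorial membrane and otic matrix genes and 3 red blood cell genes fell and 4 GER genes rose. In replicates 3 and 4 alone these counts were 1, 0 and 0. The share of mitochondrially encoded reads was between 0.424% and 1.53%, and of 13 such protein genes 0 rose and 0 fell (limma, with 0 at an unadjusted p under 0.05 and 0 with edgeR or DESeq2).

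Lgr5 (ENSMUSG00000020140, chr10:115450311-115587780), the gene that carries the toxin receptor, was measured at 63.6, 58.98, 66.1 and 64.4 CPM in the 4 control input libraries and at 17.9, 11.2, 15.1 and 19.6 CPM in the 4 DTR input libraries. The groups did not overlap, and Lgr5 fell with a log2 fold change (LFC) of -2.004 (standard error 0.15, limma adjusted p = 2.2e-08). Here and below the LFC is the difference, DTR minus control, of group means of log2(quantile normalized CPM + 0.5), and "rose" or "fell" means an adjusted p under 0.05 over the 16994 genes tested. Since one Lgr5 allele of every DTR animal is disrupted by the knock-in, this fall is not a measure of cell loss alone, and reads of A930009A15Rik, which lies inside Lgr5, cannot be parted from it. Slc1a3, which drives the Cre, had 281 ± 14.3 CPM in control and 271 ± 19.8 CPM in DTR input (SD, n = 4 each here and below), with overlapping groups and an LFC of -0.04 (adjusted p = 0.86). Rpl22, the tagged ribosomal gene, had an LFC of -0.03 (adjusted p = 0.92). In bulk RNA, fewer cells of a type and less RNA per cell cannot be told apart, and this holds for every fall below.

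Of 16994 genes, 1219 (7.17%) rose and 885 (5.21%) fell in DTR input. Counts of list members below are to be read beside these shares. Fitted with a replicate block, 1582 rose and 1331 fell. With 2 libraries a group, 1026 rose and 717 fell in replicates 1 and 2 alone and 324 rose and 322 fell in replicates 3 and 4 alone, which the counts of lists by pair are to be read beside. A strong call asked in addition for an absolute LFC of at least 1 and for a separation above 1.5, in which the lowest library of one group is divided by the highest library of the other after raising values under 1.08 CPM to that floor. By this rule 227 genes (1.34%) were strongly higher and 170 (1.00%) strongly lower. The separation rule sets the groups apart, and none of these genes had overlapping groups in CPM. Where groups of a strong call are said below not to overlap, this is thus no further evidence. Rises were steeper than falls. Of the strongly higher genes 105 had an LFC of at least 2 and 37 of at least 3, with a median of 1.84, while 47 and 11 of the strongly lower genes reached these sizes in the other direction, with a median of -1.53. Many of the rises started from little RNA, and 61 of the 227 stayed below 5 CPM even in DTR input. Protein-coding genes made up 191 of the higher and 158 of the lower strong calls, and 18 of the higher ones were long intergenic noncoding RNAs. Every strong call was also made with this block. The median LFC of all tested genes was -0.02, and the medians of gene lists below are to be read beside it.

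**Figure D1:**
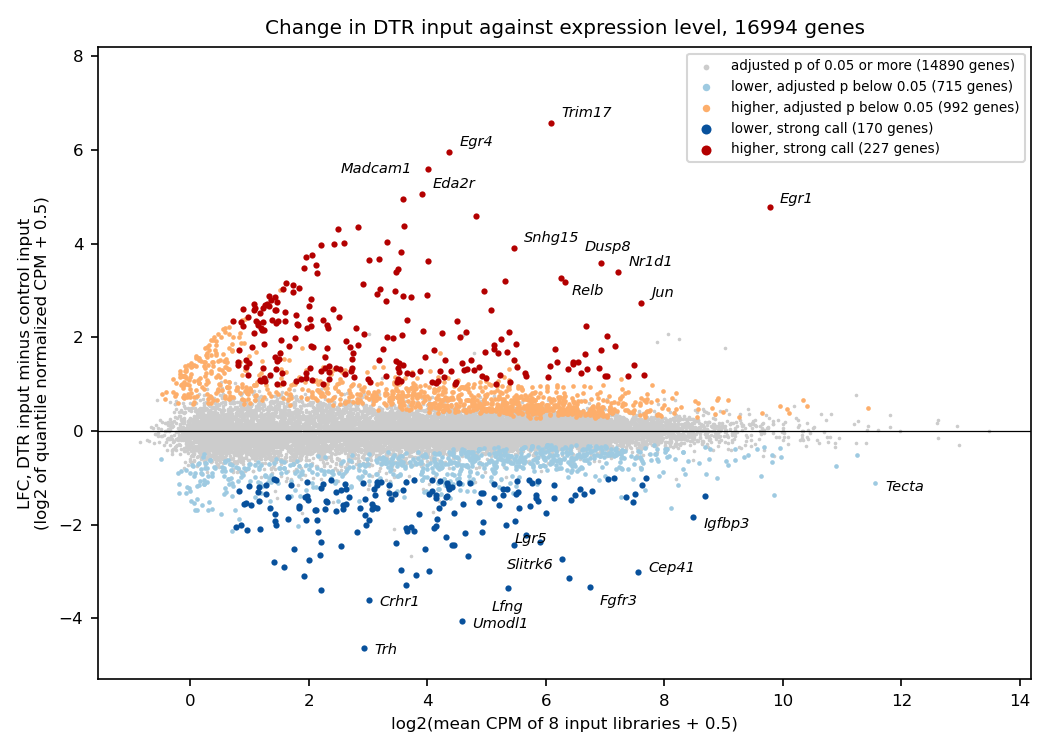
Change against level for the 16994 tested genes: each point is a gene, with the log2 of its mean CPM over the 8 input libraries on the horizontal axis and its LFC (DTR minus control input) on the vertical axis. The 227 strongly higher genes reach an LFC of 6.57 (Trim17) and lie mostly at low levels, with Egr1 and Jun as abundant exceptions, while the 170 strongly lower genes reach -4.64 (Trh) and include abundant genes such as Igfbp3 and Fgfr3.

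Markers of the lateral supporting cells had the lowest median LFC of the cell type lists, while a larger share of the Schwann cell list below fell (72.2% against 66.7%). Of 12 genes of pillar and Deiters' cells 8 fell, 7 of them as strong calls, and 0 rose, with a median LFC of -1.05. Fgfr3 (ENSMUSG00000054252, chr5:33721674-33737068), the FGF receptor that defines these cells, read 162, 188, 207 and 217 CPM in control and 16.3, 18.4, 13.6 and 28.7 CPM in DTR input. Every control library was far above every DTR library, and the LFC was -3.32 (standard error 0.18, adjusted p = 4.0e-10). Prox1, a homeobox factor of pillar and Deiters' cells, read 39.2, 34.2, 28.1 and 24.1 CPM against 14.7, 8.18, 2.91 and 4.17 CPM (LFC -2.27, adjusted p = 0.0052). Prox1 is the member with the widest spread in DTR input, lower in replicates 3 and 4 than in replicates 1 and 2. Hes5, a Notch effector, had an LFC of -2.76, Npy, encoding neuropeptide Y, of -2.73, the nuclear receptor gene Rorb of -1.10 and the matrix gene Emid1 of -1.003. Ngfr fell by 0.69 on the log2 scale, a call that was lost with single libraries left out (adjusted p = 0.16 without control input replicate 1). The summed level of the 12 markers was 1670 to 1748 CPM in control and 1247 to 1522 CPM in DTR input, which did not overlap. Without DTR input replicate 4, 1 gene of the list rose.

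Inner phalangeal and border cell markers, which lie on the medial side, moved less evenly. Of 9 genes 5 fell and 0 rose, with a median LFC of -0.69. Lfng (ENSMUSG00000029570, chr5:140607320-140615545), a glycosyltransferase that modifies Notch receptors, read 60.1, 72.7, 80.5 and 84.5 CPM in control and 5.55, 7.5997, 7.28 and 8.13 CPM in DTR input. Its groups lay about as far apart as those of Fgfr3, at an LFC of -3.35 (standard error 0.17, adjusted p = 9.1e-11). The inward rectifier potassium channel Kcnj10 had an LFC of -1.43, the calcium-activated chloride channel Ano1 of -1.27 (291 ± 49.98 against 118 ± 31.4 CPM) and S100a1 of -0.69. Fabp7, a fatty acid binding protein of inner phalangeal cells, had overlapping groups because DTR replicate 3 read 248 CPM against 147 to 164 CPM in the other DTR libraries, and it did not pass (LFC -0.50, adjusted p = 0.22), while it did with the replicate block (adjusted p = 0.017) and in replicates 1 and 2 alone (adjusted p = 0.0081). Slc1a3, on this list too, is the member with little change given above.

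Of 12 general markers of cochlear supporting cells 6 fell and 0 rose, with a median LFC of -0.43. Sox2, the transcription factor of prosensory and supporting cells, read 69.6, 63.8, 72.6 and 73.6 CPM in control and 32.3, 25.9, 39.6 and 36.7 CPM in DTR input, with no overlap (LFC -1.05, standard error 0.14, adjusted p = 1.9e-05). Cdkn1b, the cell cycle inhibitor p27Kip1 that holds supporting cells out of division, fell, without overlap, from 29.1 ± 5.18 to 12.6 ± 1.55 CPM (LFC -1.21, adjusted p = 0.00011). Sox9, which cells outside the sensory domain express too, had an LFC of 0.15 (adjusted p = 0.59) with overlapping groups. Gjb2, a connexin, fell by 0.37 on the log2 scale with overlapping groups (adjusted p = 0.13 without control input replicate 4). For the whole list the summed level was 2292 to 2759 CPM in control and 1681 to 2140 CPM in DTR input.

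**Figure D2:**
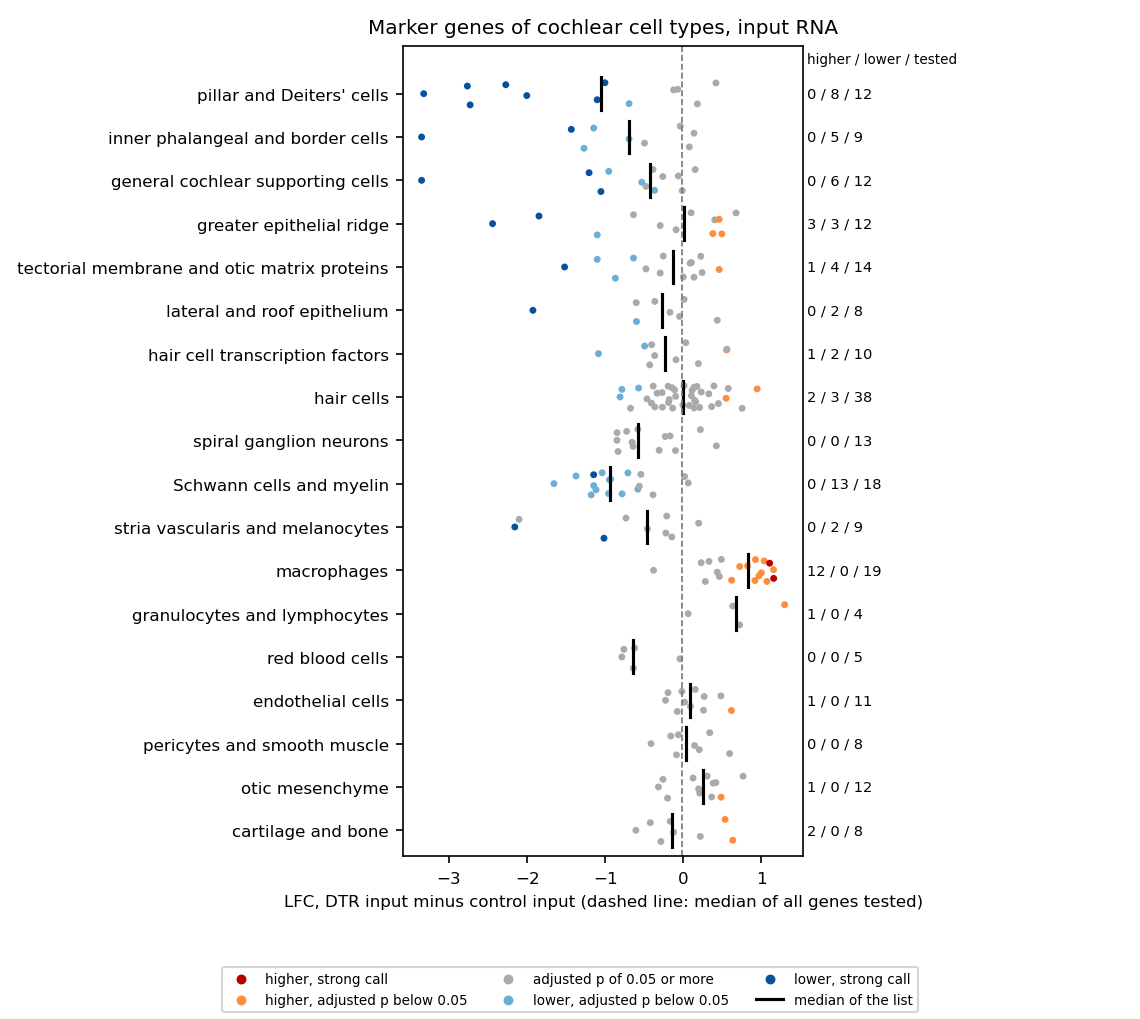
LFC (DTR minus control input, horizontal axis) of every tested marker of 18 cell type lists; each point is a gene, coloured by its call, black bars are list medians and the dashed line is the median of all genes, with the counts higher, lower and tested on the right. Pillar and Deiters' cell markers (0 higher, 8 lower of 12) and Schwann cell markers (0 higher, 13 lower of 18) lie to the left, macrophage markers (12 higher, 0 lower of 19) to the right, and the 38 hair cell genes around the middle.

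Notch, FGF and Wnt signalling genes were read gene by gene. Of 22 Notch pathway genes 5 fell and 0 rose, with a median LFC of -0.25. They were Lfng, Hes5, Hey2 (LFC -1.43, adjusted p = 5.3e-06), the ligand Jag1 (LFC -0.95, 319 ± 44.2 against 161 ± 37.2 CPM) and Hey1 (LFC -0.53). All 5 had control libraries above every DTR library, but groups did not overlap for 769 of all 885 genes that fell. Hes5 was close to its lower limit, with 3.81, 7.602, 8.87 and 5.77 CPM in control and 0.354, 0.275, 0.868 and 0.7004 CPM in DTR input.

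Of 20 tested FGF pathway genes 4 fell and 2 rose, with a median LFC of -0.14, and 7 fell with the replicate block. Among the ligands, Fgf3 fell from 5.18 ± 1.31 to 0.522 ± 0.176 CPM (LFC -2.52, adjusted p = 2.2e-07). Fgf20, a ligand of the developing organ of Corti, read 1.22, 2.31, 2.88 and 2.17 CPM in control and 0, 0.244, 0.102 and 0.122 CPM in DTR input, where it had 0 to 8 reads, so that the size of its LFC (-2.14) depends on the pseudocount. Among the receptors, Fgfrl1, which lacks a kinase domain, fell along with Fgfr3 (LFC -1.04). The study reports that its check of RNA by nCounter after damage did not bear out the change of Fgfrl1. The 2 genes that rose, Il17rd (LFC 0.60) and Spred2 (LFC 0.54), encode inhibitors of FGF and Ras signalling.

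Of 28 tested Wnt pathway genes 7 fell and 1 rose, with a median LFC of -0.30, and 11 fell with the replicate block. Besides Lgr5 and its relative Lgr6 (LFC -0.69), the falls were those of the ligand Wnt7a (LFC -1.03) and of genes that restrain Wnt signals: Notum, a Wnt deacylase, at 83.5, 88.8, 99.6 and 123 CPM in control and 22.04, 27.01, 23.6 and 44.1 CPM in DTR input (LFC -1.76, adjusted p = 2.4e-05), Nkd1 (LFC -0.80), Dkk3 (LFC -0.72) and Sfrp1 (LFC -0.55). Control libraries were above DTR libraries for each of these 7 genes, beside 769 of all 885 genes that fell without overlap. The gene that rose, Znrf3, encodes a ligase that removes Frizzled receptors from the membrane (LFC 0.83, adjusted p = 0.00068). With 1 more gene of the list, 2 rose without DTR input replicate 1, without control input replicate 4, or with the replicate block.

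Genes of gap junctions and cochlear ion transport, a list that holds genes of other cochlear cells too, fell where they passed. Of 19 tested genes 10 fell, 5 as strong calls, and 0 rose, with a median LFC of -0.44. Kcnj16, a partner of Kcnj10 in potassium channels, read 43.6, 41.5, 37.8 and 51.3 CPM in control and 7.65, 5.01, 5.44 and 9.78 CPM in DTR input (LFC -2.68, standard error 0.27, adjusted p = 9.7e-07). P2ry2, an ATP receptor (LFC -1.11), the sodium pump subunit Atp1b2 (LFC -1.02) and the glial connexin Gjb1 (LFC -1.05) were the other strong calls beside Kcnj10.

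Genes of axon guidance and adhesion were mixed. Of 26 genes 7 fell and 0 rose, with a median LFC of -0.08, and between 3 and 8 fell when single libraries were left out: 3 without control input replicate 2 or without DTR input replicate 3, and 4 without control input replicate 1 or without DTR input replicate 1. Slitrk6 (ENSMUSG00000045871, chr14:110748580-110755149), a membrane protein of supporting cells that promotes innervation, read 124, 129, 170.2 and 179 CPM in control and 14.2, 12.7, 18.03 and 22.6 CPM in DTR input. It fell as steeply as Fgfr3, at an LFC of -3.13 (standard error 0.20, adjusted p = 1.6e-09). The ephrin receptor Ephb1 (LFC -1.75) and the adhesion molecule Nrcam (LFC -1.28, 157 ± 31.1 against 63.000 ± 6.88 CPM) were the other strong calls, and these 3 were called in every fit with a library left out. Robo1 (adjusted p = 0.071 without DTR input replicate 1), Sema3a (adjusted p = 0.11 without DTR input replicate 1), Nrp2 (adjusted p = 0.14 without DTR input replicate 2) and Ngfr were lost in at least 1 of these fits.

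Medially, the GER list held genes that moved both ways. Of 12 genes 3 rose and 3 fell, with a median LFC of 0.00. The 3 that fell were Fst, encoding the activin inhibitor follistatin (LFC -2.44, adjusted p = 5.4e-06), Igfbp3, encoding an IGF-binding protein, and Tecta. Igfbp3 (ENSMUSG00000020427, chr11:7206086-7213923) read 524, 523, 656 and 574 CPM in control and 163, 142, 147 and 147 CPM in DTR input, the largest drop in CPM of all strongly lower genes (LFC -1.85, standard error 0.13, adjusted p = 4.8e-09). Dcn (LFC 0.38, adjusted p = 0.083 without DTR input replicate 1), Otoa (LFC 0.46, adjusted p = 0.17 without control input replicate 2) and Epyc (LFC 0.49, adjusted p = 0.16 without control input replicate 1) were the 3 that rose, and these calls were fragile: 0 of the list rose without DTR input replicate 1 or 3, without quantile normalization, or with edgeR or DESeq2, and 1 without DTR input replicate 2 or without control input replicate 1, 2 or 4, against 5 with the replicate block.

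Of 14 tested genes of the tectorial membrane and otic matrix 4 fell and 1, Otoa, rose, with a median LFC of -0.13. Otog, encoding otogelin, read 211, 267, 359.5 and 228 CPM in control and 84.2, 92.8, 73.6 and 103 CPM in DTR input, with no overlap (LFC -1.52, adjusted p = 9.6e-07). Tecta, encoding alpha-tectorin, read 3139, 3357, 5943 and 3290.4 CPM in control, where replicate 3 stood far above the others, and 1879, 2195, 1814 and 2451 CPM in DTR input (LFC -1.10, adjusted p = 0.00020). Otogl (LFC -0.64) and Emilin2 (LFC -0.87, adjusted p = 0.068 without DTR input replicate 1) were the others that fell. Otoa lost its call in most fits with a library left out. Ceacam16 had at most 27 reads in a library and was not tested.

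On the lateral and roof side 2 of 8 tested genes fell and 0 rose, with a median LFC of -0.27, and 4 fell with the replicate block. Bmp4, a morphogen made lateral to the organ of Corti, read 56.7, 68.8, 85.1 and 66.7 CPM in control and 16.7, 19.5, 11.6 and 27.2 CPM in DTR input (LFC -1.93, adjusted p = 7.1e-06). By the study's own check of RNA by nCounter after damage, the change of Bmp4 was not borne out. Gata3, a transcription factor of the cochlear duct, had an LFC of -0.60 (adjusted p = 0.00021). Foxi1, a factor of the endolymphatic sac, had 0 reads in all 8 libraries.

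The largest falls lay partly outside these lists. Trh (ENSMUSG00000005892, chr6:92242061-92244650), encoding thyrotropin-releasing hormone, read 13.3, 11.8, 17.9 and 13.4 CPM in control and 0.0886, 0.183, 0.0766 and 0.0609 CPM in DTR input. Its DTR libraries held 2 to 6 reads against 418 to 742 in control, so that the direction was plain while the size of the LFC (-4.64, standard error 0.19, adjusted p = 1.1e-11) depends on the pseudocount. Umodl1, encoding a uromodulin-like protein, read 35.9, 37.2, 57.7 and 46.99 CPM against 2.72, 2.197, 1.63 and 2.92 CPM (LFC -4.07, adjusted p = 3.1e-09), and Crhr1, the receptor for corticotropin-releasing hormone, 12.4, 13.9, 16.998 and 14.1 CPM against 1.48, 0.397, 0.715 and 0.731 CPM (LFC -3.61). Both are strong calls, so their groups lie apart by the rule itself.

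Cep41 (ENSMUSG00000029790, chr6:30653457-30693749), encoding a centrosomal protein of cilia, was the most abundant of the steep falls, at 271, 306, 357 and 416 CPM in control and 36.2, 36.2, 35.96 and 49.4 CPM in DTR input. The LFC was -3.01 (standard error 0.16, adjusted p = 1.9e-10). Plet1 (LFC -3.29), the irritant channel gene Trpa1 (LFC -3.09), the complement protease gene Masp1 (LFC -3.07) and Rab3b, a GTPase of vesicle release (LFC -2.98), completed the largest falls, with Rpl5-ps1, a processed pseudogene whose reads cannot be parted from those of its parent gene (LFC -3.40). Among abundant genes Npnt, encoding the matrix protein nephronectin, fell from 603 ± 34.4 to 219.8 ± 39.1 CPM (LFC -1.38), Rnd2, a small GTPase, from 239 ± 21.1 to 86.7 ± 5.67 CPM (LFC -1.41), and Tnc, encoding tenascin C, from 263 ± 83.6 to 97.7 ± 20.5 CPM (LFC -1.35). Further genes were named because an nCounter panel, not analysed here, holds them. Cyp26b1, which breaks down retinoic acid, had an LFC of -2.37 (81.6, 94.2, 109.8 and 114 CPM in control against 18.2, 19.7, 14.6 and 23.9 CPM) and Ppp2r2b, a phosphatase subunit, of -2.23.

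Of 38 hair cell genes 2 rose (5.26%, beside 7.17% of all tested genes) and 3 fell (7.89%, beside 5.21%), shares near those of all genes, with a median LFC of 0.00, and the summed level was 1750.5 to 2005 CPM in control and 1634 to 1902 CPM in DTR input, which overlapped. With the replicate block 6 rose and 5 fell. The motor gene Myo15 (LFC 0.95, adjusted p = 0.0085) and the bundle gene Espn (LFC 0.55, adjusted p = 0.061 without DTR input replicate 4) rose, the latter with DTR replicate 4 far above the rest. The scaffold gene Ush1c (LFC -0.81) and the transduction channel gene Tmc2 (LFC -0.79, adjusted p = 0.080 without control input replicate 3) were among those that fell, and 1 gene fell without control input replicate 3, without DTR input replicate 2 or without DTR input replicate 3. Of 10 hair cell transcription factors 1 rose and 2 fell, with a median LFC of -0.23. Atoh1, the factor that starts hair cell fate, read 5.62, 5.63, 8.87 and 6.96 CPM in control and 2.75, 2.17, 2.78 and 4.78 CPM in DTR input, with no overlap (LFC -1.09, adjusted p = 0.0050). The calls for Isl1 (LFC -0.50, adjusted p = 0.12 without control input replicate 3) and Ikzf2 (LFC 0.55, adjusted p = 0.12 without DTR input replicate 3) were lost in most fits with a library left out, where 0 or 1 gene rose and 1 to 3 fell.

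Neuronal genes followed the split between replicates 1 and 2 and replicates 3 and 4 in both groups: Snap25, a protein of synaptic release, read 154, 132, 28.05 and 30.4 CPM in control and 151, 77.6, 43.6 and 14.4 CPM in DTR input, and the neurofilament gene Nefl 273, 244, 66.1 and 56.2 CPM and 228, 130.5, 68.8 and 23.1 CPM. Replicates 1 and 2 lay above replicates 3 and 4 in each group, and the groups overlapped. Of 13 genes of spiral ganglion neurons 0 rose and 0 fell, with a median LFC of -0.58 and 0 at an unadjusted p under 0.05 (limma, also 0 with edgeR and DESeq2), while 4 fell with the replicate block. Their summed level ranged from 241 to 984 CPM in control and from 116 to 855 CPM in DTR input. Spiral ganglia were dissected away, and how much of them stayed in each pool was not tested.

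Of 18 Schwann cell and myelin genes 13 fell and 0 rose, with a median LFC of -0.94. Mbp, encoding myelin basic protein, read 1728, 1609, 946 and 1075 CPM in control and 458, 392, 653 and 505 CPM in DTR input. Control libraries were above DTR libraries in both of these pairs, by a wider margin in replicates 1 and 2 (LFC -1.37, standard error 0.25, adjusted p = 0.00077). Prx, encoding periaxin of the Schwann cell membrane, was the 1 strong call (LFC -1.15, adjusted p = 0.00057), with Pllp at an LFC of -1.18. Sox10, the lineage factor of Schwann cells, which supporting cells share, had an LFC of -0.39 (adjusted p = 0.063; 0.0077 with the replicate block). The summed level of the list was 3767 to 6244 CPM in control and 2021 to 2913 CPM in DTR input, without overlap, and the number of genes that fell was 13 in replicates 1 and 2 alone and 3 in replicates 3 and 4 alone, where each group has 2 libraries. The neuronal list moved with this split as given above, and its part in the change of Schwann cell genes was not tested.

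Of 9 tested genes of the stria vascularis and melanocytes 2 fell and 0 rose, with a median LFC of -0.46, and 4 were lower with the replicate block, 5 in replicates 1 and 2 alone and 1 in replicates 3 and 4 alone. Kcne1, a potassium channel subunit of marginal cells, read 11.2, 11.9, 2.66 and 2.23 CPM in control and 0.384, 0.824, 1.23 and 1.401 CPM in DTR input (LFC -2.16, adjusted p = 0.0024), and Atp1b2 is the other. Dct, a pigment enzyme of melanocytes, read 28.8, 39.8, 2.56 and 2.07 CPM and 3.81, 3.69, 0.919 and 0.975 CPM, high only in replicates 1 and 2 of the control group (LFC -2.10, adjusted p = 0.11; 0.0049 with the replicate block). The lateral wall was removed at dissection, and how much of it stayed in each pool was not tested. Of 5 tested red blood cell genes 0 rose and 0 fell (limma, 4 lower at an unadjusted p under 0.05; 1 lower with edgeR, 2 with DESeq2 and 3 with the replicate block), with a median LFC of -0.64. Without DTR input replicate 3 the count was 2 and without control input replicate 3 it was 1.

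**Figure D3:**
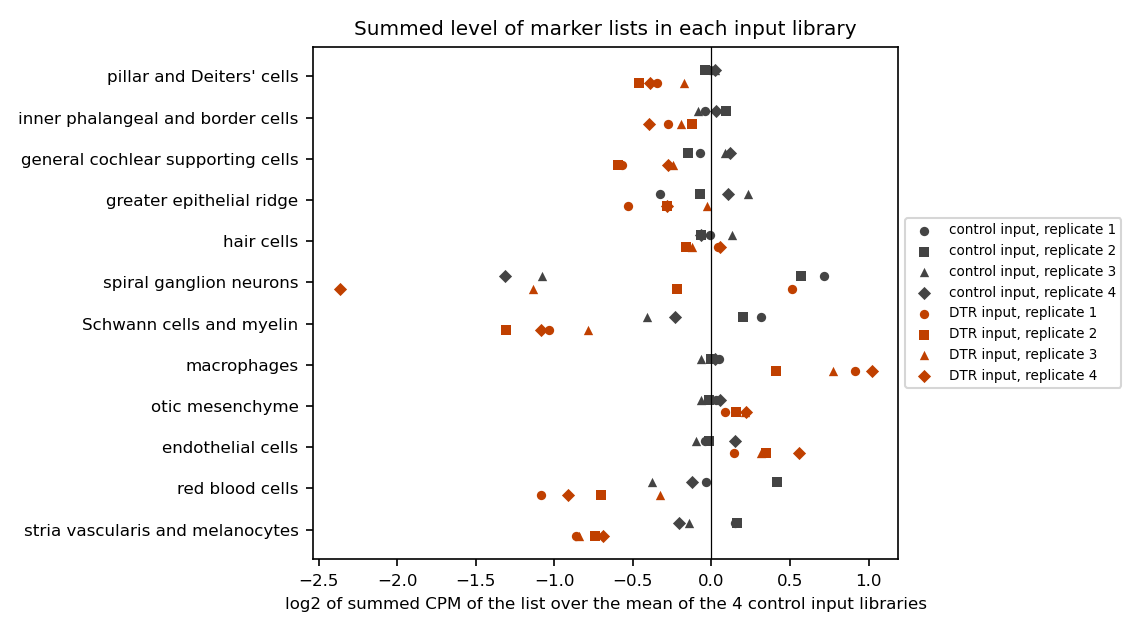
Summed CPM of 12 marker lists in each input library, as log2 over the mean of the 4 control input libraries (horizontal axis); grey symbols are control and orange symbols DTR libraries, and the shape gives the replicate. Spiral ganglion markers spread by replicate, from 116 to 984 CPM, in both groups, while all 4 DTR libraries lie above the controls for macrophage markers and below them for pillar and Deiters' cell and Schwann cell markers.

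Of 19 tested macrophage genes 12 rose and 0 fell, with a median LFC of 0.82, and the summed level was 247 to 268 CPM in control and 345 to 526 CPM in DTR input, without overlap. Ctss, encoding the lysosomal protease cathepsin S, read 12.3, 11.01, 9.599 and 13.3 CPM in control and 27.6, 21.4, 26.7 and 29.3 CPM in DTR input (LFC 1.16, standard error 0.22, adjusted p = 0.0012). Every DTR library was above every control library, with replicate 2 the lowest. Lyz2, encoding lysozyme (LFC 1.16), Cd68, a marker of phagocytes (LFC 1.11), and the complement gene C1qc (LFC 1.07) rose by like amounts. Receptors that define the lineage moved less: Csf1r, the receptor for the growth factor CSF1, read 36.1, 34.97, 35.3 and 39.9 CPM and 51.3, 37.8, 39.99 and 59.2 CPM (LFC 0.33, adjusted p = 0.44), and Adgre1, encoding F4/80, had an LFC of 0.49 (adjusted p = 0.30). With replicates 1 and 2 alone 6 genes rose, and with replicates 3 and 4 alone 10.

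Other blood and connective tissue lists gave 0 to 2 calls each. The share that rose was 9.09% for endothelial cells and 8.33% for otic mesenchyme, near the 7.17% of all tested genes. It was 25% for the 4 tested genes of granulocytes and lymphocytes and for the 8 of cartilage and bone. Of 4 tested genes of granulocytes and lymphocytes 1 rose, the B cell receptor gene Cd79a, from 0.2704 ± 0.117 to 1.61 ± 0.282 CPM (LFC 1.30). Among the inputs Cd79a met the filter of 0.5 CPM through DTR input only, so neither this call nor the share of the list is support of its own. The T cell markers Cd3e and Cd3g had at most 15 reads in a library. Of 11 endothelial genes 1 rose, Emcn, encoding endomucin (LFC 0.62, 172 ± 11.9 against 265 ± 25.4 CPM), with a list median of 0.09 and 2 higher with the replicate block. Of 12 genes of otic mesenchyme 1 rose, Postn, encoding periostin (LFC 0.48), with a median of 0.26, 2 higher without control input replicate 2 and 2 with the replicate block. Of 8 tested genes of cartilage and bone 2 rose, Lect1 (LFC 0.54) and Matn1 (LFC 0.63, adjusted p = 0.081 without control input replicate 1), and of 8 genes of pericytes and smooth muscle 0 rose and 0 fell (limma, 1 higher and 1 lower at an unadjusted p under 0.05, 0 with edgeR, 1 higher with DESeq2, with the replicate block or without quantile normalization, and 1 lower without DTR input replicate 4).

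Immediate early genes were among the rises. These genes encode factors that cells transcribe within minutes of a stimulus. Of 34 such genes 17 rose, 10 as strong calls, and 1 fell, with a median LFC of 0.57. Egr1 (ENSMUSG00000038418), a zinc finger factor, read 75.7, 46.3, 53.7 and 45.8 CPM in control and 2489, 2273, 687 and 1352 CPM in DTR input. All DTR libraries were far above the controls, and among them replicate 3 was the lowest and replicate 1 the highest (LFC 4.79, standard error 0.40, adjusted p = 8.0e-08). Its relative Egr4 (ENSMUSG00000071341, chr6:85511121-85513589) went from 0 to 4 reads a library to 71.4, 43.5, 11.7 and 33.7 CPM, so that the LFC of 5.96 depends on the pseudocount. Fos read 7.22, 4.67, 5.75 and 5.93 CPM and 88.95, 65.7, 23.2 and 44.4 CPM (LFC 2.996), with the same order of the DTR libraries.

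Partners of Fos in the AP-1 complex rose too. Jun (ENSMUSG00000052684, chr4:95049034-95052222) read 53.9, 46.6, 57.96 and 37.8 CPM in control and 432, 311, 247 and 369.8 CPM in DTR input, without overlap (LFC 2.74, standard error 0.18, adjusted p = 4.2e-09). Fosb had an LFC of 2.72, Junb of 1.85 and Atf3, a factor induced by injury, of 2.86 (2.67 ± 0.499 against 22.9 ± 5.65 CPM). Of these, Junb is a gene whose change the study's nCounter check did not bear out. The small Maf gene Maff had an LFC of 2.88, the Krüppel-like factor Klf6 of 1.16 and the phosphatase gene Dusp1 of 1.04. The 1 gene that fell was the nuclear receptor gene Nr4a3, from 2.68 ± 0.9004 to 0.879 ± 0.486 CPM (LFC -1.32, adjusted p = 0.0022). Dusp8, a phosphatase of Jun kinases that is not on the list, was among the largest rises, at 25.8, 26.1, 11.5 and 11.8 CPM in control and 271, 249.7, 161 and 220.4 CPM in DTR input (LFC 3.58, standard error 0.29, adjusted p = 4.8e-08).

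Promoters of some of these genes are printed because they hold the palindrome TGACGTCA, the cAMP response element bound by CREB and ATF proteins, and because it occurs in strongly higher genes of several lists. Windows of 250 bases before to 50 after the RefSeq start were searched on both strands. A gene can have more than 1 window, so a share of windows and a share of genes are unlike measures. The palindrome lay in 1.79% of 32851 such windows, in 409 (3.49%) of the 11720 tested genes with a window, in 10 (6.29%) of 159 strongly higher genes and in 0 of 119 strongly lower genes, a description with no test. The lines give the 150 bases before the start, read 5′ to 3′ on the gene's strand in GRCm38.p6, with the palindrome in capitals: for Dusp8 and Snhg15 (described below with the small nucleolar RNA hosts), for Clk4 and Ccnl1 (described with the splicing genes) and for Maff.
Dusp8, chr7:142095285-142095434, minus strand: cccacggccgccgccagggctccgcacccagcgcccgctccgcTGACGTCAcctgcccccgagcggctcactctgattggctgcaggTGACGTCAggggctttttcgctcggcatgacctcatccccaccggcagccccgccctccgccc
Snhg15, chr11:6528761-6528910, minus strand: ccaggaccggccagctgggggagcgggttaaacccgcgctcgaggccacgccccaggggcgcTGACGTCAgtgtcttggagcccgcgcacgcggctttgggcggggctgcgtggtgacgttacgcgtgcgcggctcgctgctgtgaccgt
Clk4, chr11:51262964-51263113, plus strand: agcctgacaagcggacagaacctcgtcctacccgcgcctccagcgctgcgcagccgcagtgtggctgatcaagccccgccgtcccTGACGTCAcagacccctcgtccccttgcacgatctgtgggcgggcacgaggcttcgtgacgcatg
Ccnl1, chr3:65958250-65958399, minus strand: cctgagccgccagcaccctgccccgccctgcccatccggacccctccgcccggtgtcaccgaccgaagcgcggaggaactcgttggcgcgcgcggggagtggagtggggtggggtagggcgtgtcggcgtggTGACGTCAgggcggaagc
Maff, chr15:79347370-79347519, plus strand: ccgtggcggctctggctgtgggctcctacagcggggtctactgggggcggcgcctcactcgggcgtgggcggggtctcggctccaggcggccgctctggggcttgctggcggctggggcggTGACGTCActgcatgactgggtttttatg
Dusp8 holds 2 copies, which begin 107 and 63 bases before the start. The others hold 1 each, beginning 88 bases before the start in Snhg15, 65 in Clk4, 18 in Ccnl1 and 29 in Maff. Slc25a25, a mitochondrial carrier that rose from 60.4 ± 1.72 to 225 ± 53.5 CPM (LFC 1.82), holds it 150 bases before a RefSeq start. A gene can have several such starts, and the one given here has the palindrome in its window. For Slc25a25 (start at 32424066 in chr2:32414487-32451445), Clk4 and Dusp8 this start lies inside the annotated gene.

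Among NF-kappaB genes, subunits of the noncanonical pathway rose. Of 15 genes of NF-kappaB subunits and their regulators, a list added after the data were seen, 9 rose and 0 fell, with a median LFC of 0.62. As for every list added in this way, neither count nor median is support of its own. Relb (ENSMUSG00000002983, chr7:19606217-19629438) read 11.7, 13.9, 14.7 and 14.4 CPM in control and 161, 147, 105 and 140.5 CPM in DTR input (LFC 3.26, standard error 0.16, adjusted p = 9.1e-11), and its partner Nfkb2 15.1, 11.7, 17.3 and 16.2 CPM and 150.01, 152, 90.1 and 182 CPM (LFC 3.17). The groups of both genes were far apart, with DTR replicate 3 the lowest. Rel (LFC 1.18), Bcl3 (LFC 1.38), the inhibitor genes Nfkbia (LFC 1.34) and Nfkbie (LFC 1.28), and Map3k14, the kinase of the noncanonical pathway (LFC 1.03), rose as well. Nfkb1, the subunit of the canonical pathway, read 21.3, 22.3, 22.3 and 24.6 CPM and 22.6, 24.1, 23.6 and 30.9 CPM, with overlapping groups (LFC 0.14, adjusted p = 0.59).

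Of 36 listed chemokines, cytokines and NF-kappaB targets 26 were tested, and 12 of these rose, 7 as strong calls, with a median LFC of 0.70. The list shares Relb, Nfkb2, Nfkbia and Nfkbie with the former one. Cxcl16, a membrane-bound chemokine, read 13.2, 14.7, 15.1 and 17.4 CPM in control and 73.2, 60.3, 68.4 and 67.2 CPM in DTR input (LFC 2.11, adjusted p = 4.3e-08), and Icam1, an adhesion molecule for leukocytes, rose from 16.98 ± 3.38 to 55.2 ± 10.3 CPM (LFC 1.66). Tnfaip3, which limits NF-kappaB signalling, had an LFC of 1.37. The cytokines Tnf, Il1b and Il6 were too low to be tested, with at most 10, 12 and 18 reads in a library. The NF-kappaB motif GGANTTNCC, searched in the same windows, lay in 3.95% of them. Counted by gene, it lay in 4.79% of tested genes with a window, in 8.18% of the strongly higher and in 8.40% of the strongly lower ones. It is shown for Nfkb2, the subunit gene given above, and for Nfkbia, the gene of a well-known inhibitor, with the match in capitals, which in Nfkb2 is the palindromic overlap of 2 matches on both strands.
Nfkb2, chr19:46304587-46304736, plus strand: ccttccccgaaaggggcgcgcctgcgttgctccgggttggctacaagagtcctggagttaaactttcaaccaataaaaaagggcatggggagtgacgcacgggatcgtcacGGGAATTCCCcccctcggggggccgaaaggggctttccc
Nfkbia, chr12:55492648-55492797, minus strand: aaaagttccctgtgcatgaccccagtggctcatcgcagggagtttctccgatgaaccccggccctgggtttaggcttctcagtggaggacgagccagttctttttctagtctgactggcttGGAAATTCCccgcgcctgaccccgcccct

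Interferon-stimulated and antigen presentation genes rose in part. Of 25 interferon-stimulated genes 7 rose and 0 fell, with a median LFC of 0.60. The count was 4 without control input replicate 1, 13 with the replicate block, 11 with edgeR or without quantile normalization and 14 with DESeq2. Ddx58, encoding the RNA sensor RIG-I, read 13.5, 14.1, 15.1 and 14.6 CPM in control and 46.5, 50.7, 36.6 and 55.9 CPM in DTR input (LFC 1.68, adjusted p = 4.2e-07). Oasl1 (LFC 1.13, at most 11 reads in a control library) and Bst2, encoding tetherin (LFC 1.04), rose as well. Isg15 and Irf7 were above the controls in every DTR library, mainly in replicate 4, with an LFC of 0.83 (adjusted p = 0.18, 0.048 with the replicate block) and 0.89 (adjusted p = 0.11, 0.040 with the block). Of 13 genes of MHC class I and antigen presentation, an added list, 3 rose, and these encode the class I chains themselves: H2-K1 from 46.5 ± 7.67 to 119 ± 20.8 CPM (LFC 1.32), H2-D1 (LFC 0.98) and B2m (LFC 0.66). The H2 genes are near copies of each other, so reads could be split between them.

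Targets of p53 rose widely. Of 27 p53 target genes 17 rose, 7 as strong calls, and 0 fell, with a median LFC of 0.60, and the same number rose with each library left out, 15 in replicates 1 and 2 alone and 9 in replicates 3 and 4 alone. Eda2r (ENSMUSG00000034457, chrX:97333840-97377216), a receptor of the TNF family, read 0.214, 0.507, 0.484 and 0.181 CPM in control and 25.4, 35.4, 26.3 and 28.02 CPM in DTR input (LFC 5.06, standard error 0.25, adjusted p = 9.1e-11). The rise was from 7 to 20 to 860 to 1160 reads a library. Psrc1 had an LFC of 1.84, Ccng1, encoding cyclin G1, of 1.18, and Gdf15, a stress cytokine, of 1.73. The best-known targets moved less: Mdm2, the ligase of p53, rose from 74.7 ± 7.97 to 118 ± 12.4 CPM (LFC 0.64) and Cdkn1a, the cell cycle inhibitor p21, from 206 ± 15.7 to 289.5 ± 26.8 CPM (LFC 0.48).

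Of 22 tested apoptosis genes 4 rose and 1 fell, with a median LFC of 0.04. Bbc3, Pmaip1 and Bax are on the p53 list as well: Bbc3, encoding PUMA, at 8.96, 8.59, 8.44 and 9.19 CPM in control and 35.98, 37.8, 30.5 and 43.1 CPM in DTR input (LFC 2.01, adjusted p = 5.0e-10), Pmaip1, encoding NOXA (LFC 2.15), and Bax (LFC 0.97). The fourth, Birc3, encodes an inhibitor of cell death (LFC 1.45). Bmf fell by 0.87 on the log2 scale (adjusted p = 0.054 without control input replicate 1), and 2 genes fell without DTR input replicate 3.

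Stress pathways differed in the share of members called. Of 25 tested genes of the integrated stress response 5 rose (20%, beside 7.17% of all tested genes) and 0 fell, with a median LFC of 0.07. Atf4, its central factor, read 62.4, 89.4, 76.9 and 78.97 CPM in control and 213, 192, 150.5 and 155 CPM in DTR input (LFC 1.18, adjusted p = 9.7e-07), and Ddit3, encoding CHOP (LFC 1.04), Cebpg (LFC 0.90), Ppp1r15a (LFC 0.68) and Gdf15 were the others. Asns, an enzyme that Atf4 induces, had overlapping groups (LFC -0.24, adjusted p = 0.51). Of 18 genes of endoplasmic reticulum chaperones and the unfolded protein response 1 rose (5.56%), Syvn1 (LFC 0.47, adjusted p = 0.089 without DTR input replicate 4), and 1 fell, Sel1l (LFC -0.40, adjusted p = 0.11 without DTR input replicate 1). Of 18 tested heat shock chaperones 2 rose, Chordc1 (LFC 0.66, adjusted p = 0.074 without DTR input replicate 1) and Dnajb4 (LFC 0.43, adjusted p = 0.17 without DTR input replicate 1), and 0 rose without control input replicate 2 or 3 or without DTR input replicate 1. Of 19 genes of the oxidative stress factor NRF2 2 fell, G6pdx (LFC -0.79) and Me1 (LFC -0.38, adjusted p = 0.069 without control input replicate 4), and Hmox1, its best-known target, had an LFC of 0.27 (adjusted p = 0.30). Of 10 genes of DT entry and its target 1 rose, Hbegf, the mouse gene for the growth factor whose human form is the DT receptor, from 9.46 ± 0.726 to 15.1 ± 1.98 CPM (LFC 0.63, adjusted p = 0.064 without DTR input replicate 3). Only DTR animals carry the human receptor, and whether its reads were counted on mouse Hbegf was not tested. Eef2, the elongation factor that DT inactivates, had an LFC of 0.03 (adjusted p = 0.91).

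**Figure D4:**
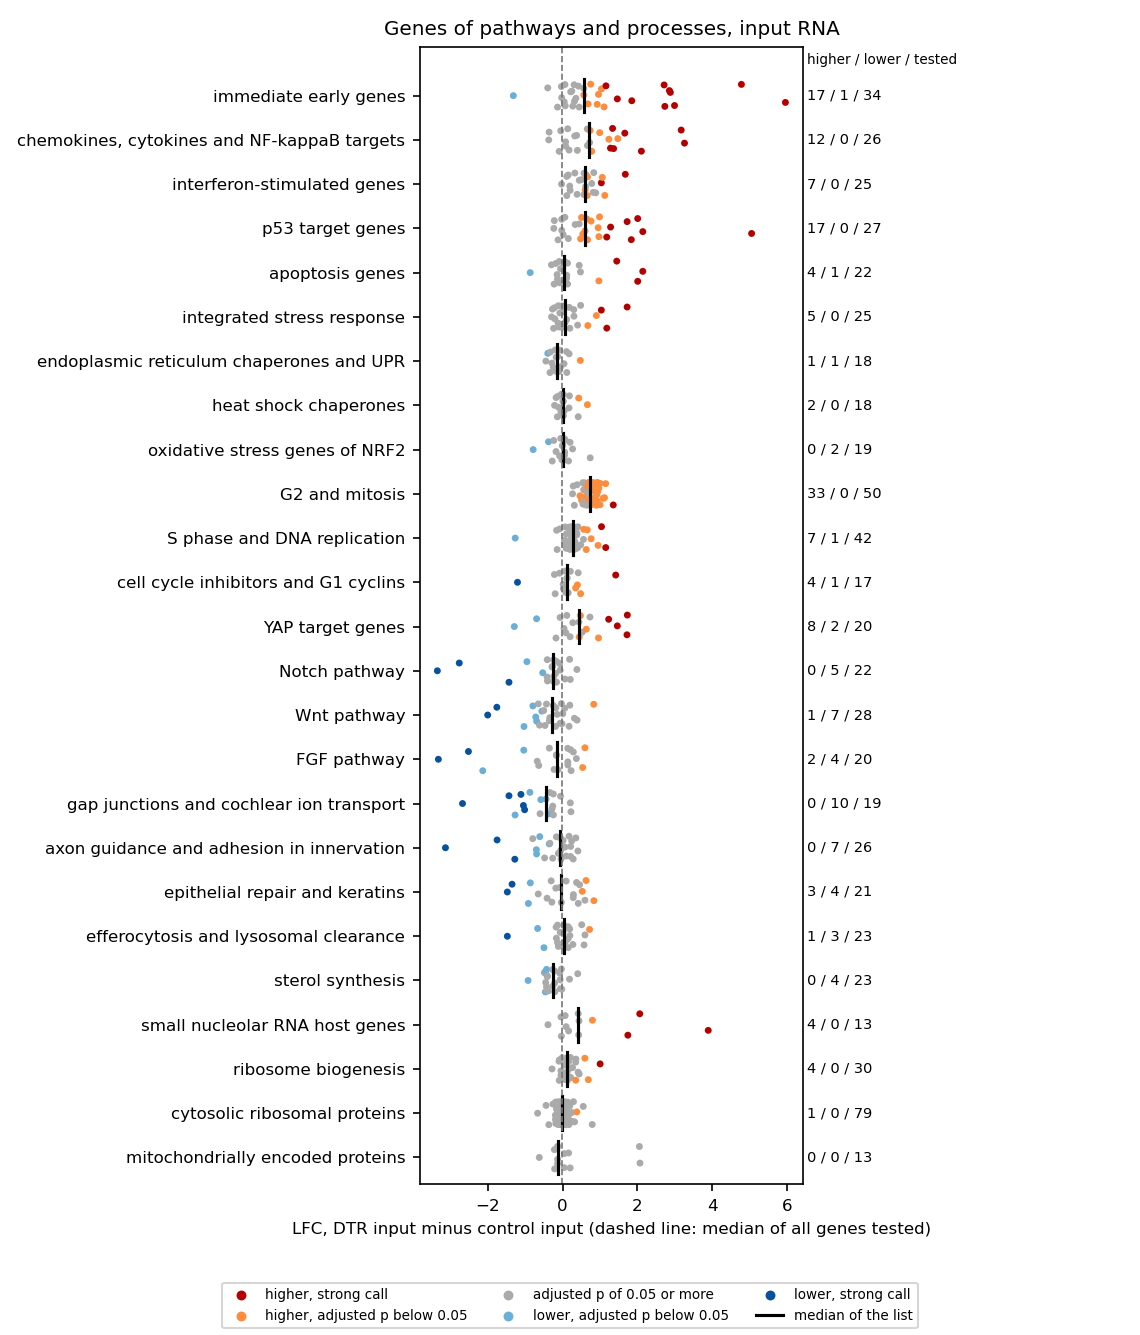
LFC (DTR minus control input, horizontal axis) of every tested gene of 25 lists of pathways and processes; each point is a gene, coloured by its call, black bars are list medians and the dashed line is the median of all genes, with the counts higher, lower and tested on the right. All 50 genes of G2 and mitosis lie to the right of the line by small amounts (33 higher), whereas immediate early genes (17 higher of 34) and p53 targets (17 higher of 27) have long tails to the right.

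Many cell division genes rose by small amounts. Of 50 genes of G2 and mitosis 33 rose, 1 of them as a strong call, and 0 fell, with a median LFC of 0.73. Ccnb1, the cyclin of mitotic entry, read 26.7, 16.1, 21.2 and 13.97 CPM in control and 47.5, 42.6, 46.1 and 37.3 CPM in DTR input (LFC 1.15, standard error 0.23, adjusted p = 0.0017). Its groups did not overlap, with control replicates 1 and 3 above replicates 2 and 4. Smc4, a condensin subunit, was the strong call, at 24.6 ± 2.89 against 65.8 ± 13.9 CPM (LFC 1.36), and the kinase gene Plk1 (LFC 1.12), the cyclin gene Ccna2 (LFC 1.08), Cdk1 (LFC 0.94) and Ccnb2 (LFC 0.93) followed. Mki67, the gene of the proliferation antigen Ki-67, rose from 8.08, 8.78, 10.3 and 6.11 CPM to 13.7, 14.2, 14.5 and 12.6 CPM (LFC 0.70, adjusted p = 0.011). The kinetochore gene Cenpf rose with an LFC of 0.79 (adjusted p = 0.054 without control input replicate 2). With 2 libraries a group, 14 genes of the list rose in replicates 1 and 2 and 9 in replicates 3 and 4.

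Of 42 genes of S phase and DNA replication 7 rose and 1 fell, with a median LFC of 0.28. Mcm10, which loads replication proteins (LFC 1.15), the thymidine kinase gene Tk1 (LFC 1.04), the polymerase gene Pola1 (LFC 0.95) and Rrm2, which makes deoxynucleotides (LFC 0.76), rose. Pole, the catalytic subunit of polymerase epsilon, went the other way, at 26.2, 26.6, 33.996 and 41.9 CPM in control and 11.2, 10.5, 12.97 and 19.8 CPM in DTR input, with no overlap (LFC -1.27, adjusted p = 0.00035). Of 17 tested cell cycle inhibitors and G1 cyclins 4 rose and 1, Cdkn1b, fell. E2f5, a repressor of the E2F family, rose from 46.4 ± 3.91 to 128 ± 22.1 CPM (LFC 1.42), and Cdkn1a, Cdkn1c (LFC 0.40) and Ccnd2 (LFC 0.35, adjusted p = 0.078 without control input replicate 3) were the others. Ccnd1, the cyclin of G1, had an LFC of -0.22 (adjusted p = 0.47).

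Of 70 replication-dependent histone genes, a list added after the data were seen, 37 were tested, and 23 of these rose and 0 fell, with a median LFC of 1.41, or 13 where at least 2 CPM were required. Since members that are at rest in control passed the filter through DTR input, neither their count nor their median is support of its own. The untested members had at most 120 reads in a library, and some of them had more in control, such as Hist1h2ap with at most 120 reads in a control and 10 in a DTR library. Hist1h4h read 0.905, 0.507, 0.822 and 0.129 CPM in control and 26.9, 21.8, 11.1 and 14.04 CPM in DTR input (LFC 4.03), and Hist1h3b rose from 1 to 2 to 205 to 290 reads a library (LFC 3.75), with Hist1h2be at an LFC of 3.02. Most of these messengers end without a poly(A) tail and the genes are near copies, so what the library kit captured and how reads were assigned limit these values.

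Circadian genes were called in part. Of 22 circadian genes, an added list, 9 rose and 1, Rorb, fell, with a median LFC of 0.32. Nr1d1 (ENSMUSG00000020889, chr11:98767932-98775333), the repressor REV-ERB alpha, read 22.3, 27.03, 21.4 and 24.9 CPM in control and 359, 326, 171 and 237 CPM in DTR input, far apart (LFC 3.39, standard error 0.22, adjusted p = 2.2e-09). Thra overlaps Nr1d1, and strand cannot part the reads of the stretch they share. Ciart (LFC 2.35), Nr1d2 (LFC 1.399, 96.8 ± 12.6 against 262 ± 64.8 CPM), Per1 (LFC 1.28) and Dbp (LFC 1.04) rose as strong calls. Arntl (LFC -0.07, adjusted p = 0.82) and Clock (LFC 0.04, adjusted p = 0.93), which encode activators of the clock, did not pass. Times of dissection for the groups are not given in the sources used here, and their part in this result was not tested. The E-box CACGTG, to which CLOCK binds, lay in 7.15% of all windows. Counted by gene, it lay in 11.1% of tested genes with a window, in 13.8% of strongly higher and in 10.1% of strongly lower ones. Ciart holds 3 copies, which begin 116, 58 and 44 bases before its start and are in capitals here.
Ciart, chr3:95882229-95882378, minus strand: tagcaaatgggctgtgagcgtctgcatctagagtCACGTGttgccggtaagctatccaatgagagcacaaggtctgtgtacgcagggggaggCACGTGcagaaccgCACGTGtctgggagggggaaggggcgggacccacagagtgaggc

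Splicing regulators rose in part. Of 30 genes of CLK kinases and splicing factors, an added list, 11 rose and 0 fell, with a median LFC of 0.34, and 7 rose without DTR input replicate 1, 14 in replicates 1 and 2 alone and 4 in replicates 3 and 4 alone. Clk4, a kinase of splicing factors, read 45.01, 53.9, 44.7 and 52.6 CPM in control and 247, 263, 165 and 171 CPM in DTR input (LFC 2.03, standard error 0.18, adjusted p = 1.5e-07). Replicates 1 and 2 were above replicates 3 and 4 in the DTR group, and all 4 were far above the controls. Ptbp2 (LFC 1.38), the cyclin L gene Ccnl1 (LFC 1.33) and Srsf10 (LFC 1.20, 121 ± 19.6 against 282 ± 56.2 CPM) were the other strong calls.

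Of 13 tested host genes of small nucleolar RNAs 4 rose and 0 fell, with a median LFC of 0.42. Snhg15 (ENSMUSG00000085156, chr11:6525591-6528760) read 3.41, 5.15, 5.05 and 6.93 CPM in control and 94.9, 86.4, 74.2 and 72.4 CPM in DTR input (LFC 3.90, standard error 0.18, adjusted p = 4.0e-11). 1810032O08Rik (LFC 2.07), Snhg17 (LFC 1.75) and Epb41l4aos (LFC 0.80) were the others. Of 30 ribosome biogenesis genes 4 rose, Rrp9 (LFC 1.004), Nop58 (LFC 0.69), Nop56 (LFC 0.60) and Ltv1 (LFC 0.35, adjusted p = 0.14 without DTR input replicate 1), with a median of 0.13. Of 79 cytosolic ribosomal protein genes 1 rose, Rpl5 (LFC 0.38, adjusted p = 0.085 without DTR input replicate 1), with a median of -0.01 and 4 higher with the replicate block.

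Of 20 tested targets of YAP, a factor that senses tension and cell density, 8 rose and 2 fell, with a median LFC of 0.44. Amotl2, which feeds back on YAP, read 48.9, 58.8, 52.1 and 55.3 CPM in control and 225, 217, 119 and 196 CPM in DTR input (LFC 1.73, adjusted p = 6.3e-06), and Gadd45b (LFC 1.72), Cyr61 (LFC 1.46) and Ajuba (LFC 1.23) were the other strong calls, while Ctgf rose with an LFC of 0.96. Cyr61 and Ctgf are on the list of immediate early genes as well. Dock5 (LFC -1.29) fell with overlapping groups, since DTR replicate 4 read 32.5 CPM against 8.63 to 11.7 CPM in the others, and Crim1 fell with an LFC of -0.70.

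Epithelial repair and clearance lists gave calls in both directions. Of 21 tested genes of epithelial repair and keratins 3 rose and 4 fell, with a median LFC of -0.03, and 6 rose with the replicate block and 1 without DTR input replicate 3. Krt18 (LFC 0.53), Hbegf (with the limit given above) and Cldn4 (LFC 0.84, adjusted p = 0.082 without control input replicate 4) rose. Anxa1, encoding annexin A1, fell from 126 ± 3.08 to 45.2 ± 10.1 CPM (LFC -1.48), and Tnc, the integrin gene Itgb6 (LFC -0.86) and the laminin gene Lamb3 (LFC -0.91, adjusted p = 0.15 without DTR input replicate 1) fell with it. Of 23 genes of efferocytosis and lysosomal clearance 1 rose, Trem2, a receptor of microglia and macrophages (LFC 0.72, adjusted p = 0.13 without DTR input replicate 4), and 3 fell: Anxa1, the engulfment receptor gene Megf10 (LFC -0.67) and Itgb5 (LFC -0.50, adjusted p = 0.081 without DTR input replicate 3). Of 23 sterol synthesis genes 4 fell (6 in replicates 1 and 2 alone and 0 in replicates 3 and 4 alone), among them Hmgcs1 (adjusted p = 0.14 without DTR input replicate 1) and Cyp51 (adjusted p = 0.072 without control input replicate 1), with a median of -0.27. That count was 1 without control input replicate 1 or without DTR input replicate 2, 2 without control input replicate 2 or 3 or without DTR input replicate 1 or 4, and 7 without DTR input replicate 3.

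The largest rises were again partly outside the lists. Trim17 (ENSMUSG00000036964, chr11:58954685-58973098), encoding a ubiquitin ligase known from dying neurons, read 0.834, 0.3097, 1.14 and 1.19 CPM in control and 156, 147, 95.5 and 138 CPM in DTR input. The groups lay far apart and the LFC was 6.57 (standard error 0.25, adjusted p = 3.9e-12). Hist3h2a, 2310058D17Rik, Gm12260 and Gm44313 overlap the gene, and the library kit does not mark strand, so their reads cannot be parted from it. Madcam1 (ENSMUSG00000020310, chr10:79664559-79668537), known as an adhesion molecule of gut vessels, rose from 3 to 9 reads a library to 26.6, 31.8, 30.9 and 35.7 CPM (LFC 5.60, depending on the pseudocount), and the pre-T cell receptor gene Ptcra from 2 to 6 to 292 to 545 reads (LFC 4.36). T cell markers were near 0 in all libraries, as given above.

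Several of the largest rises carry no known role. Gm11274, a noncoding RNA 9.4 kb from Hist1h1b, had an LFC of 4.96, and Gm20627, 5.4 kb from Hist2h4, of 4.01. Gm4262, which overlaps Litaf, had an LFC of 4.37, and 4833427G06Rik, which overlaps Btg4, of 4.31, from 0 to 2 reads a library in control. Gm6311, a processed pseudogene, read 89.6, 3.11, 69.97 and 57.1 CPM in DTR input, with replicate 2 far below the others, against 0.929, 0.957, 0.967 and 0.492 CPM in control (LFC 4.58). Of the genes of the nCounter panel, Cacna1c, a calcium channel gene, rose from 3.51 ± 0.849 to 20.7 ± 6.58 CPM (LFC 2.38), and Iqck rose with an LFC of 0.61 (adjusted p = 0.096 without control input replicate 1).

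**Figure D5:**
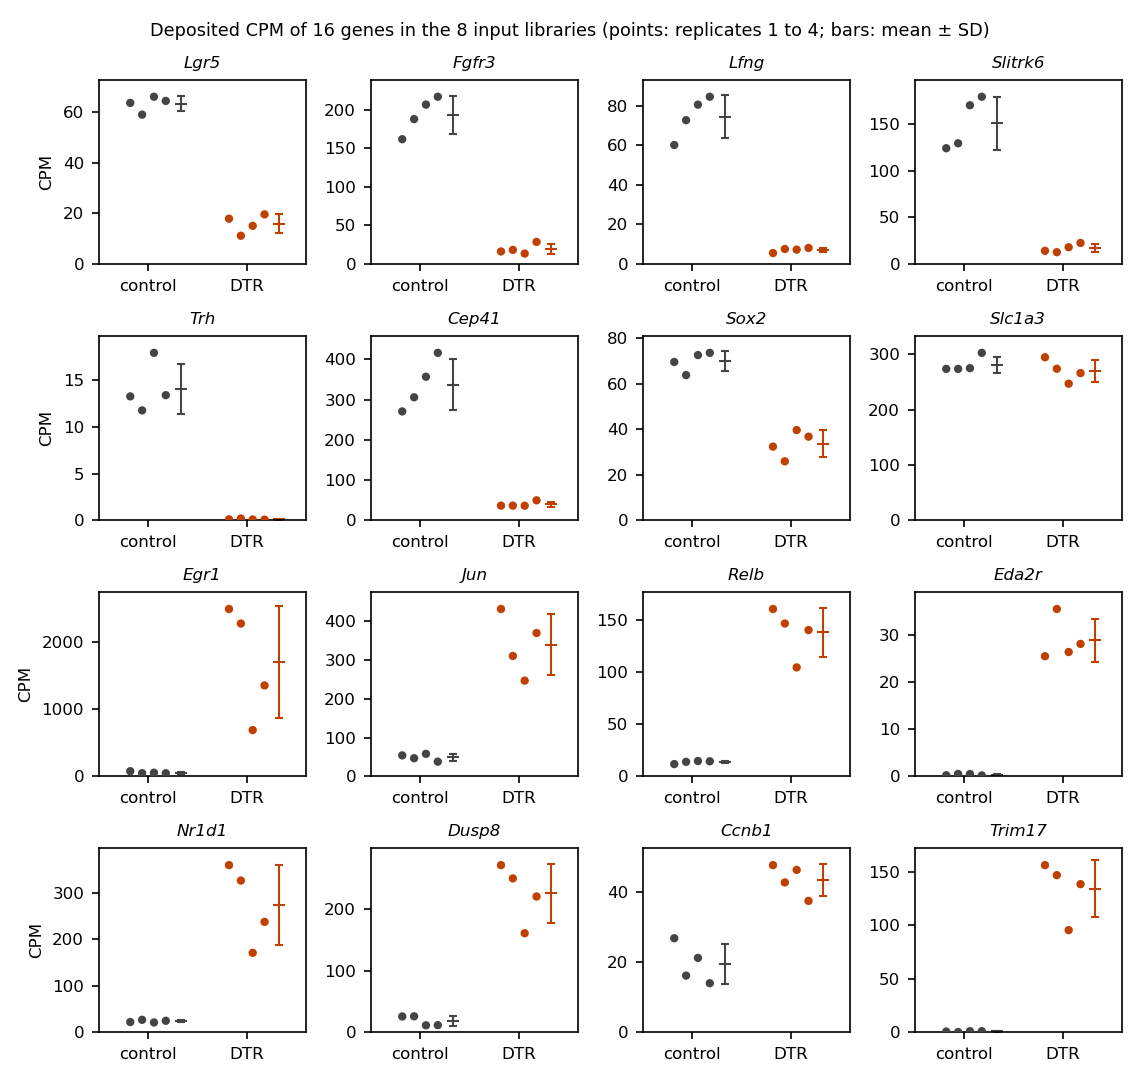
CPM as deposited (vertical axes, starting at 0) of 16 genes in the 4 control and 4 DTR input libraries; points are replicates 1 to 4 from left to right and bars are the mean ± SD. The groups overlap for Slc1a3 and lie apart for the other 15 genes, and the DTR libraries of Egr1 spread from 687 to 2489 CPM.

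Whether these changes differ from those of ribosome-bound RNA was tested as a difference of the LFC in input and in IP, which come from the same pools. In the fit of group means, which does not pair the 2 libraries of a pool, this difference passed for 2 of 16994 genes (0.0118%), with 870 at an unadjusted p under 0.05. With the pool as a block, which pairs them, it passed for 40 genes, so the number depends on how pairing is treated. Trh fell less in input (LFC -4.64) than in IP (LFC -6.50), a difference of 1.86 (standard error 0.27, adjusted p = 0.028). Gm34653 rose in input, from 0.453, 0.817, 0.846 and 0.931 CPM to 4.25, 4.33, 3.27 and 3.99 CPM (LFC 1.67), while its LFC in IP was -0.06, a difference of 1.73 (standard error 0.26, adjusted p = 0.028). Both calls, made in the fit of group means, depended on single libraries. In that fit 0 genes passed without control input replicate 1 or 2 or without any one DTR input library. The number was 1 without control input replicate 3 and 5 without control input replicate 4. Lgr5 differed by -0.07 (adjusted p = 1.00), with an LFC of -1.93 in IP. For Umodl1 the fall was deeper in input than in IP (-2.04) by a difference of -2.03, which missed the threshold (adjusted p = 0.092).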

How the data were processed

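Whole-cochlear-duct input and HA-immunoprecipitated RNA was measured by RNA-seq (SMART-Seq v4, which does not mark strand). The deposited table holds CPM, gene counts scaled to a fixed library total, which the authors made from their gene counts: the methods name HISAT2 and HTSeq, the submitters' processing notes TopHat and GRCm38, and the role of TopHat is not given in the sources used here. Of 50316 genes listed, 2587 had no value in any library. Whole reads were recovered from the deposited CPM steps for 99.99% to 100% of values (within 0.01 reads) and served the count tests.

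Genes with at least 0.5 CPM in all 4 libraries of at least 1 group were tested. List members that are low in control input, such as Egr4, Eda2r and Cd79a, could pass this filter only through another group. Their part in the count of a list is thus no support of its own. Values of all 16 libraries were log2 transformed after adding 0.5, following quantile normalization, and fitted with limma, which shared 1 estimate of the spread over 4 groups, with Benjamini-Hochberg adjustment. The expression filter, quantile normalized CPM and the criteria of a strong call (LFC and separation) were taken from the study's methods. The test was not: the study tested gene counts with DESeq2, whereas limma was used here because the deposited values are CPM, and DESeq2 on the recovered reads was an alternative. p-values measure the spread between libraries within the 4 groups. Input and IP libraries of the same pool were counted as separate, so this is not the spread between pools in input alone. The floor of a strong call was 1.08 CPM. Scripts were tested on simulated data. Gene positions and overlaps came from GENCODE vM21 and promoters from RefSeq (GRCm38.p6). Further named genes overlap others, among them Fgfr3 (G630022F23Rik), Cep41 (Gm13782), Jun (Junos) and Dusp8 (Gm32786). Strand cannot part reads of the stretches they share.

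Members and lists were chosen with earlier results of these data known, and the lists of clock, NF-kappaB subunit, splicing, MHC and histone genes, the fits of replicates 1 and 2 or 3 and 4 alone, and the fit with this split as a term were chosen after seeing the data. Counts and medians of these added lists describe the data they were chosen from and are no support of their own. Named genes were the targeted genes and those whose change after damage the study reports as borne out by its nCounter panel. Added to these were, in each direction, the 12 strong calls with the largest LFC at 5 CPM or more and the 8 with the largest difference in CPM. Up to 4 called members of each list in each direction, members that did not pass, as values, and genes whose change differed between input and IP were named too. Further members are named where a list held at most 5 calls. Some genes that this rule names are not reported here. Same-numbered libraries deviated together from their group means (r from 0.291 to 0.442 in the 4 pairs, against a mean of -0.119 between different numbers), so the replicate number was also fitted as a block. Other alternatives were scaling, pseudocounts of 0.1 and 1, the filter, leaving out each library, edgeR's quasi-likelihood test and DESeq2. At an adjusted p under 0.05 edgeR called 1275 genes higher and 795 lower. Columns of IP libraries were used for the spread and the last comparison. R 4.3.3, limma 3.58.1, edgeR 4.0.16, DESeq2 1.42.0 and Python 3.11.15 were used.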

Additional observations from a re-analysis of the deposited data

Results flagged for a closer look

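In groups of 4 libraries, the gap of the highest or lowest library to its nearest neighbour was set against the range of the group, and a share above Dixon's 95% critical value marks a library that stands apart. Of 440 groups (220 genes in control and DTR input) 20 passed, and chance alone marks about 1 in 20 groups. In control input replicate 4 this held for Slc1a3 (highest, 302.8 CPM against 273.8 to 275.1 CPM, share 0.955), Gm6311 (lowest, 0.4916 CPM against 0.9293 to 0.9672 CPM, share 0.920) and E2f5 (highest, 52.21 CPM against 43.96 to 44.82 CPM, share 0.896). In control input replicate 3 this held for Cenpf (highest, 8.197 CPM against 6.926 to 7.012 CPM, share 0.932), Rab3b (highest, 32.13 CPM against 26.09 to 27.01 CPM, share 0.848), Tnc (highest, 387.8 CPM against 212.1 to 232.4 CPM, share 0.885), Emid1 (lowest, 256.7 CPM against 280.4 to 285.1 CPM, share 0.836), Tecta (highest, 5943 CPM against 3139 to 3357 CPM, share 0.922) and Bax (highest, 89.78 CPM against 81.59 to 82.86 CPM, share 0.845). In control input replicate 2 this held for Trpa1 (highest, 7.574 CPM against 5.692 to 5.838 CPM, share 0.923), Ppp1r15a (highest, 90.49 CPM against 79.4 to 80.75 CPM, share 0.878) and Epb41l4aos (highest, 7.574 CPM against 4.908 to 5.361 CPM, share 0.830). In DTR input replicate 4 this held for Cep41 (highest, 49.37 CPM against 35.96 to 36.22 CPM, share 0.980), Dock5 (highest, 32.46 CPM against 8.626 to 11.72 CPM, share 0.870) and Espn (highest, 79.12 CPM against 55.49 to 56.41 CPM, share 0.961). In control input replicate 1 this held for Rnd2 (lowest, 207.6 CPM against 247.4 to 251.6 CPM, share 0.905). In DTR input replicate 2 this held for Adgre1 (lowest, 7.386 CPM against 13.1 to 14.27 CPM, share 0.830). In DTR input replicate 1 this held for Gadd45b (highest, 30.49 CPM against 23.84 to 24.72 CPM, share 0.867) and Dusp1 (highest, 58.26 CPM against 31.25 to 35.29 CPM, share 0.850). In DTR input replicate 3 this held for Anxa1 (lowest, 30.24 CPM against 48.48 to 51.71 CPM, share 0.849).

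The change of Trh differed between input and IP by 1.859 on the log2 scale (adjusted p = 0.0279) and that of Gm34653 by 1.733 (adjusted p = 0.0283), by the limma test of the difference. Both calls were lost without some single libraries, such as control input replicate 1.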

How the results depend on the processing

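Numbers of strong calls, 227 higher and 170 lower, depended on the separation criterion, without which they were 406 and 286. With at least 2 CPM required, 130 genes were strongly higher. With 2 libraries a group, 385 genes were strongly higher and 273 strongly lower in replicates 1 and 2 alone, against 223 and 218 in replicates 3 and 4 alone. At an adjusted p under 0.05, 1026 rose and 717 fell in replicates 1 and 2 alone. In replicates 3 and 4 alone 324 rose and 322 fell. With the replicate block 1331 genes fell against 885. Without 1 library, between 223 and 297 genes were strongly higher and between 174 and 217 strongly lower. The difference between input and IP passed for 2 genes, for 1 without quantile normalization and for 0 with a pseudocount of 0.1, without a filter or with edgeR. It passed for 40 with the pool as a block, for 49 with DESeq2 and for 0 to 5 with single libraries left out. The cause was not tested.

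Among named genes, 4508 values kept their direction and side of the threshold, 286 values of 73 genes lost the call and 24 values of 5 genes gained it. The LFC changed sign in 7 genes, none of them called. Slc1a3 was at 0.0626, Rpl22 at 0.0713, Arntl at 0.0764 and Clock at -0.1635 in replicates 1 and 2 alone. Eef2 was at -0.0774 in replicates 3 and 4 alone, -0.0478 without quantile normalization, -0.0610 centred on library medians, -0.0614 with edgeR and -0.0845 with DESeq2. With single libraries left out, Rpl22 lay between -0.0853 and 0.0756, Eef2 between -0.0209 and 0.0749, Nefl between -1.0555 and 0.0350, Snap25 between -0.8029 and 0.3075 and Clock between -0.0740 and 0.1123. The median of all genes stayed between -0.03 and 0.01.

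Depth limits genes with few reads in one group, such as Trh in DTR input (2 to 6 reads) and Egr4 in control input (0 to 4 reads), for which the size of the LFC depends on the pseudocount. Genotype, Lgr5 dosage and cell loss cannot be told apart in this design.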
